A study of Homo sapiens with 12 samples.

Results

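PSMC1 to PSMC6 encode the 6 ATPase subunits of the 19S regulatory particle of the proteasome. They were taken by gene symbol from the deposited expression table, which lists 58676 genes, and all 6 were found once. All 6 were also among the 12194 genes with a mean of at least 1 FPKM over the libraries, the set that was tested. FPKM is fragments per kilobase of gene, scaled to the number of fragments of the library, so levels of different genes can be set side by side per length.

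The proteasome degrades proteins that carry ubiquitin. Its 20S core holds the proteolytic sites inside a closed barrel, and the 19S particle that caps the barrel recognises, unfolds and feeds in the substrate. The 6 ATPases form a hexameric ring (Rpt subunits) at the base of the 19S particle, next to the core. They use ATP to pull the substrate through the ring and, by docking the tails of some subunits into the core, open its gate. The ring is built in pairs by dedicated chaperones before it meets the rest of the particle. Bortezomib blocks the catalytic sites of the core, not the ATPases. NFE2L1 (also called NRF1 or TCF11) is a transcription factor of the endoplasmic reticulum membrane that is released when the proteasome is inhibited and acts on proteasome subunit genes.

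A549, the cell line used, is an established line from a human lung carcinoma. A control line (genotype Control1) and 2 lines with a knockout of NFE2L1 (genotypes NFE2L1 KO1 and NFE2L1 KO2, here KO1 and KO2) were each given DMSO vehicle or 200 nM bortezomib for 4 h. Each of the 6 groups had 2 libraries, 12 in all. The labels do not say how the knockout was made, whether a line is a clone, or whether the 2 libraries of a group came from separate cultures, so the p-values measure only the spread between these libraries, which may be technical.

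The libraries held 13211608 to 23819258 reads assigned to genes. In every group 1 library carries the suffix R2. Its partner carries R1 in the knockout lines and no suffix in the control line. The R2 libraries stood apart: mitochondrial genes took 12.3% to 19.3% of their reads, against 5.44% to 6.8% in the partners. NFE2L1 was at 72.74 and 151 FPKM in the partner and R2 libraries of the vehicle control line, at 8.448 and 14.82 in KO1 and at 18.62 and 33.61 in KO2. With bortezomib it was at 108.8 and 189.4 in the control line, 27.04 and 35.77 in KO1 and 36.67 and 50.79 in KO2. Every knockout library was below every control library, and some NFE2L1 transcript was present in all of them. All 8 A549 markers examined had a mean of at least 1 FPKM, but their levels differed between the lines. Of 7 markers of blood, endothelial, stromal and liver cells, 6 stayed between 0 and 0.2 FPKM in every library. The other, COL1A1, a collagen gene, made up nearly all of the summed level of those markers. That sum was 1.606 to 5.23 FPKM over the 6 vehicle libraries and 6.105 to 23.42 over the 6 bortezomib libraries, so it moved with bortezomib, and its part in the bortezomib results was not tested.

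PSMC4 was the most abundant of the ATPase transcripts and PSMC1 the least. Averaged over the 12 libraries, PSMC4 was at 109.1 FPKM, PSMC3 at 59.49, PSMC2 at 31.39, PSMC5 at 26.34, PSMC6 at 15.83 and PSMC1 at 11.38. PSMC4 was above PSMC3, PSMC3 above PSMC2 and PSMC5 above PSMC6 in all 12 libraries. The neighbours PSMC2 and PSMC5 did not separate, since PSMC2 was the higher in 7 of 12 libraries. PSMC6 was above PSMC1 in 10 of 12 libraries, the exceptions being the 2 vehicle libraries of the control line. Part of this order rests on the gene length used. The deposited length spans the joined exons of all transcripts of a gene, and it was 3.42 times the principal transcript of GENCODE 29 for PSMC6 and 2.84 times for PSMC5. Per kilobase of the principal transcript, a scale chosen after seeing the data, the order was PSMC4, PSMC3, PSMC5, PSMC6, PSMC2 and PSMC1.

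The genes lie on 5 chromosomes and share no neighbourhood, except that PSMC1 and PSMC6 are both on chromosome 14, far apart. In the coordinates of the deposited table, which are those of GRCh38, PSMC1 (ENSG00000100764) spans chr14:90256495-90275429 and PSMC6 (ENSG00000100519) spans chr14:52707172-52728587, both on the plus strand. PSMC2 (ENSG00000161057) spans chr7:103344254-103369395 on the plus strand, and PSMC3 (ENSG00000165916) spans chr11:47418769-47426473 on the minus strand. PSMC4 (ENSG00000013275) spans chr19:39971005-39981441 and PSMC5 (ENSG00000087191) spans chr17:63827152-63832026, both on the plus strand. Each value is 1 number per gene, so isoforms, exons and UTRs are not resolved. PSMC5 shares 2861 bases with FTSJ3 on the opposite strand (FTSJ3 at 21.19 to 30.87 FPKM), and PSMC2 shares 620 with DNAJC2 (5.178 to 23.27 FPKM). PSMC2 also shares 16666 bases with SLC26A5 on the opposite strand (0 to 0.2044 FPKM). On its own strand it shares 171 with CTA-276O3.4, a processed pseudogene (0 to 3.726 FPKM). PSMC1 shares 7574 bases with NRDE2 on the opposite strand (1.199 to 2.181 FPKM). These overlaps are of whole gene spans, introns included, so they do not measure how many reads are affected. Whether reads were counted by strand is not given in the sources used here. The values of these 3 genes are therefore uncertain to an unknown extent. For CTA-276O3.4, on the same strand as PSMC2, counting by strand would not separate the reads. PSMC1 has 13 annotated pseudogene copies, of which 7 were listed at 0 in all 12 libraries and none exceeded 59 reads. The other 5 genes have no annotated copy named after them in the table.

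Because most ATPase transcripts moved together with bortezomib, their RefSeq promoters (GRCh38.p14, 250 bases before to 50 after a start) were searched for 3 short motifs on both strands. There were 7 windows for the 6 genes, with 2 for PSMC5. TGACNNNGC, the core of the element that NFE2L1 and related CNC factors bind with small MAF proteins, had 1 match in the PSMC4 window and 1 in the downstream PSMC5 window, both on the minus strand, and none in the other 5. It is present in 13.3% of all 35114 promoter windows of this length. The PSMC4 match lies 28 to 36 bases after the RefSeq start, at chr19:39971192-39971200, in an exon of 5 of the 6 annotated transcripts and in a UTR of 2. The PSMC5 match lies 57 to 49 bases before the internal start, at chr17:63827664-63827672, inside 14 of its 21 transcripts and in an exon of 3. Both stretches are shown 5′ to 3′ on the plus strand, with the reverse complement of the motif in capitals.
PSMC4, chr19:39971181-39971210: cacagaggccgGCTTGGTCActatggagga
PSMC5, chr17:63827653-63827682: cgaccggatctGCTGTGTCAgcgccgccct
CCAAT, the box bound by NF-Y, was found in the windows of PSMC2, PSMC3 and the upstream start of PSMC5, on the plus strand of each gene, against 34.6% of all windows. GAANNTTC, a pair of heat shock element units, was found in none of the 7, against 6.77% of all windows. The next stretches stop before every annotated start. They are those of PSMC4 and PSMC6, the genes with the largest differences between groups, and of PSMC3, where the CCAAT letters are in capitals.
PSMC4, chr19:39970915-39971004, plus strand: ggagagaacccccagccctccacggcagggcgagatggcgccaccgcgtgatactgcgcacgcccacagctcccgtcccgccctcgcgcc
PSMC6, chr14:52706950-52707171, plus strand: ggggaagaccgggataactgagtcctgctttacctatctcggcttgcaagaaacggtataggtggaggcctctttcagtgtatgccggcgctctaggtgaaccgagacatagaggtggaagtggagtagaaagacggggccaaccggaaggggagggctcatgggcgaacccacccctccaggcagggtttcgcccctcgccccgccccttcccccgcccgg
PSMC3, chr11:47426474-47426689, minus strand: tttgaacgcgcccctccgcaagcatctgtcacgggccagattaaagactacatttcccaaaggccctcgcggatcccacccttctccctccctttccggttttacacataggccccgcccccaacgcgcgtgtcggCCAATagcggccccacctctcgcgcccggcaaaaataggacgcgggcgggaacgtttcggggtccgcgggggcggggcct
The upstream stretch of PSMC4 was 74.4% G or C, that of PSMC3 64.8% and that of PSMC6 62.2%. A match or its lack describes the letters in these windows only.

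With bortezomib the ATPase transcripts were higher than with vehicle in all 3 lines, and PSMC4 and PSMC6 showed the largest differences in the control line. Differences are given on the scale of log2(FPKM + 1), which understates the change of low genes, and come from limma fitted over all 12194 genes with Benjamini-Hochberg adjusted p-values. A gene is said to have risen or fallen where its adjusted p was under 0.05. In the fit with a term for the title suffix (the replicate block), 5 of the 6 genes rose in the control line and 5 in KO1, in both cases all but PSMC1. In KO2, 5 of 6 rose, all but PSMC5. The same fit called 16.1% of all genes higher for the control line, 13.9% for KO1 and 12.7% for KO2. Without the block none of the 6 was called in any line, where 0.23%, 0.156% and 0.172% of all genes were called higher. PSMC6 in the control line was then the only case with an unadjusted p under 0.05. The fit without the block was the main fit. Rises, falls, SEs and 95% intervals below come from the fit with the block, unless another fit is named. Intervals without the block were wider, at -0.120 to 2.988 for PSMC4 with bortezomib in the control line. For PSMC4 in KO1 minus control with bortezomib, that interval was -3.025 to 0.083. The median difference over the 6 genes was 0.83 for the control line, 0.68 for KO1 and 0.67 for KO2. For the median gene tested it was -0.01, 0.01 and -0.02.

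Both fits give the same bortezomib differences and differ in the error. From partner to R2 library the 6 genes dropped by 0.61 (PSMC6) to 1.31 (PSMC2) on the log2 scale, averaged over the groups, against 0.21 for the median gene. The fit without the block counts that gap as spread. The share of mitochondrial reads separates the same libraries, and its part in the gap was not tested. In a bulk sample, more transcript per cell and more cells that express it cannot be told apart.

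**Figure D1:**
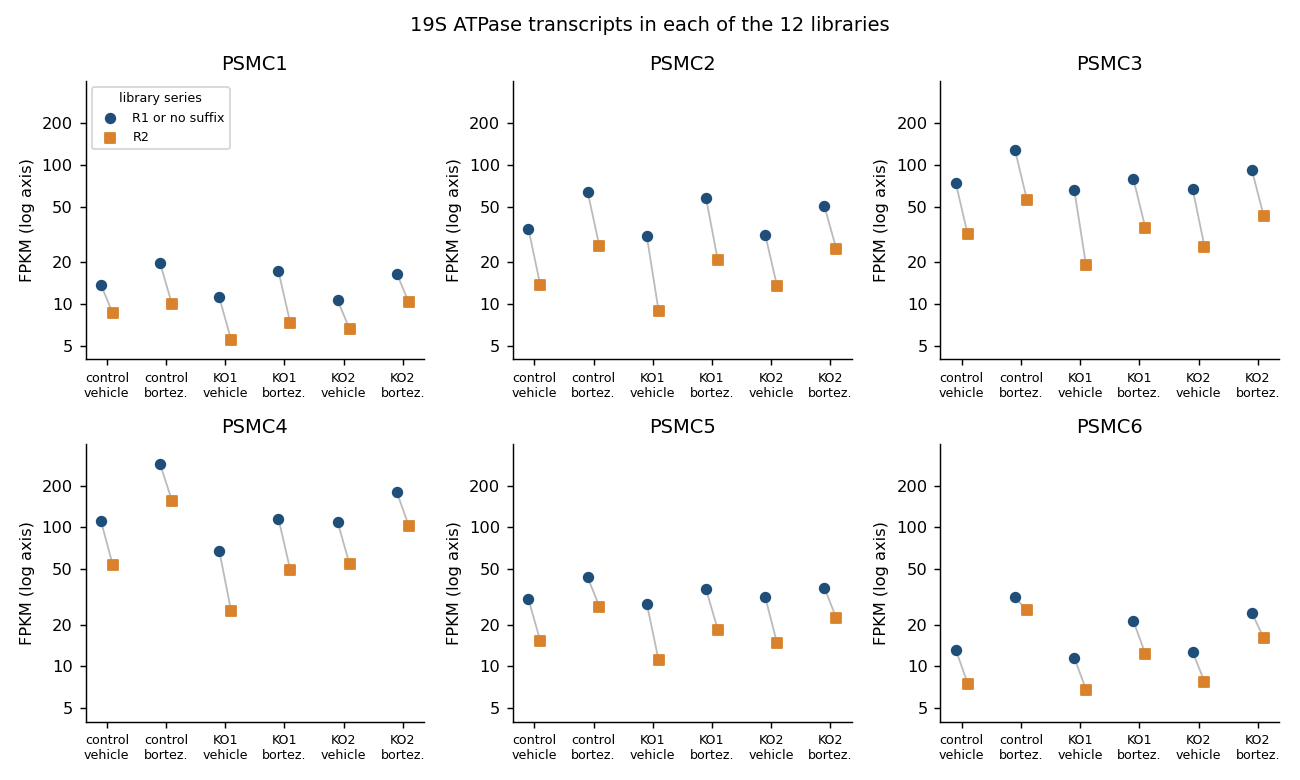
Levels of the 6 ATPase transcripts (FPKM, log axis) in each library, by line and treatment, with circles for libraries with the suffix R1 or none, squares for R2, and a line joining the 2 libraries of a group. The R2 library is the lower of its pair for all 6 genes in all 6 groups, and within each suffix the bortezomib point lies above the vehicle point of the same line.

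PSMC4 (Rpt3) and PSMC5 (Rpt6) form one of the pairs from which the ring is assembled. In the control line PSMC4 was at 111.7 and 53.65 FPKM with vehicle and at 285.2 and 156 with bortezomib, in the partner and the R2 library. Both bortezomib libraries were above both vehicle libraries, an order found for 16.9% of all genes. PSMC4 rose by a log2 difference of 1.43 ± 0.17 (SE, 95% interval 1.04 to 1.82, n = 2 against 2), or 2.7-fold, with an adjusted p of 0.000563 in limma with the block and 0.453 without it. In KO1 it was at 67.79 and 25.07 with vehicle and at 115.2 and 49.3 with bortezomib. In KO2 it was at 109 and 54.48 with vehicle and at 178.6 and 103 with bortezomib. In both knockout lines the groups overlapped, because the R2 bortezomib library lay below the partner vehicle library. Within each suffix the rise was 1.7-fold and 1.97-fold in KO1 and 1.64-fold and 1.89-fold in KO2, against 2.55-fold and 2.91-fold in the control line. The limma differences were 0.85 in KO1 (adjusted p 0.00724 with the block, 0.827 without) and 0.81 in KO2 (0.00977 and 0.872).

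PSMC5, its partner, moved less. It was at 30.58 and 15.3 FPKM with vehicle and 43.82 and 26.95 with bortezomib in the control line, a log2 difference of 0.64 ± 0.17 (SE), with an adjusted p of 0.0183 in limma with the block and 0.794 without. In KO1 it rose by 0.51 (adjusted p 0.0495 with the block), from 28.35 and 11.08 to 36.01 and 18.41 FPKM. In KO2 the levels were 31.67 and 14.74 with vehicle and 36.79 and 22.4 with bortezomib, a difference of 0.39 that was not called with the block (adjusted p 0.114, 95% interval 0.01 to 0.77). On TPM with the block PSMC5 was not called in KO1 (adjusted p 0.0531), and with quantile normalization and the block it was called in KO2 (0.0336). The vehicle and bortezomib groups of PSMC5 overlapped in all 3 lines.

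PSMC6 (Rpt4) and PSMC3 (Rpt5) form another assembly pair. PSMC6 was one of the 2 lowest members with vehicle and showed the clearest separation by treatment. In the control line it went from 13.15 and 7.526 FPKM with vehicle to 31.32 and 25.34 with bortezomib, a 2.38-fold rise in the partner library and 3.37-fold in R2. In KO1 it went from 11.56 and 6.796 to 21.17 and 12.32, and in KO2 from 12.7 and 7.772 to 24.35 and 15.99. PSMC6 is the only one of the 6 genes whose bortezomib libraries were both above the vehicle libraries in every line, an order found for 16.9%, 12.6% and 15.8% of all genes in the control line, KO1 and KO2. The log2 difference was 1.41 ± 0.145 (SE, 95% interval 1.08 to 1.74) in the control line. For KO1 it was 0.80 ± 0.145 and for KO2 0.92 ± 0.145. The limma adjusted p-values were 0.000302, 0.00471 and 0.00242 with the block, and 0.21, 0.656 and 0.572 without it.

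PSMC3 carries one of the tails that open the core's gate. It was at 73.34 and 31.55 FPKM with vehicle and 127.1 and 55.97 with bortezomib in the control line, a log2 difference of 0.80 ± 0.18 (SE), with an adjusted p of 0.0103 in limma with the block and 0.812 without. In the knockout lines its 2 libraries did not move equally: the bortezomib to vehicle ratio in KO1 was 1.19 in the partner library and 1.87 in R2, and in KO2 it was 1.38 and 1.66. The limma differences were 0.56 in KO1 (adjusted p 0.0467 with the block) and 0.58 in KO2 (0.041), close to the threshold. On TPM with the block PSMC3 was not called in KO1 (adjusted p 0.0525).

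PSMC2 (Rpt1) and PSMC1 (Rpt2) form the remaining pair. PSMC2 rose in all 3 lines. It went from 34.71 and 13.68 to 64.14 and 25.88 FPKM in the control line, from 30.65 and 8.891 to 57.85 and 20.56 in KO1, and from 31.47 and 13.47 to 50.4 and 24.96 in KO2. The log2 differences were 0.87 ± 0.18 (SE), 1.01 ± 0.18 and 0.75 ± 0.18, with limma adjusted p-values of 0.00633, 0.00394 and 0.0149 with the block and 0.78, 0.819 and 0.915 without. In KO1 it was the member with the largest difference.

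PSMC1, whose tail also enters the core, had the smallest difference of the 6 in the control line and KO1. In the control line it was at 13.72 and 8.54 FPKM with vehicle and 19.58 and 9.955 with bortezomib, a log2 difference of 0.34 ± 0.16 (SE, 95% interval -0.03 to 0.71) that was not called in limma (adjusted p 0.141 with the block, 0.898 without). In KO1 the levels were 11.11 and 5.491 with vehicle and 17.09 and 7.25 with bortezomib, a difference of 0.46 (adjusted p 0.0647 with the block, and 0.0367, a call, in voom with the block). In KO2 it rose by 0.58, from 10.55 and 6.59 to 16.45 and 10.22 FPKM (adjusted p 0.0305 with the block, 0.887 without). Its groups overlapped in all 3 lines.

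**Figure D2:**
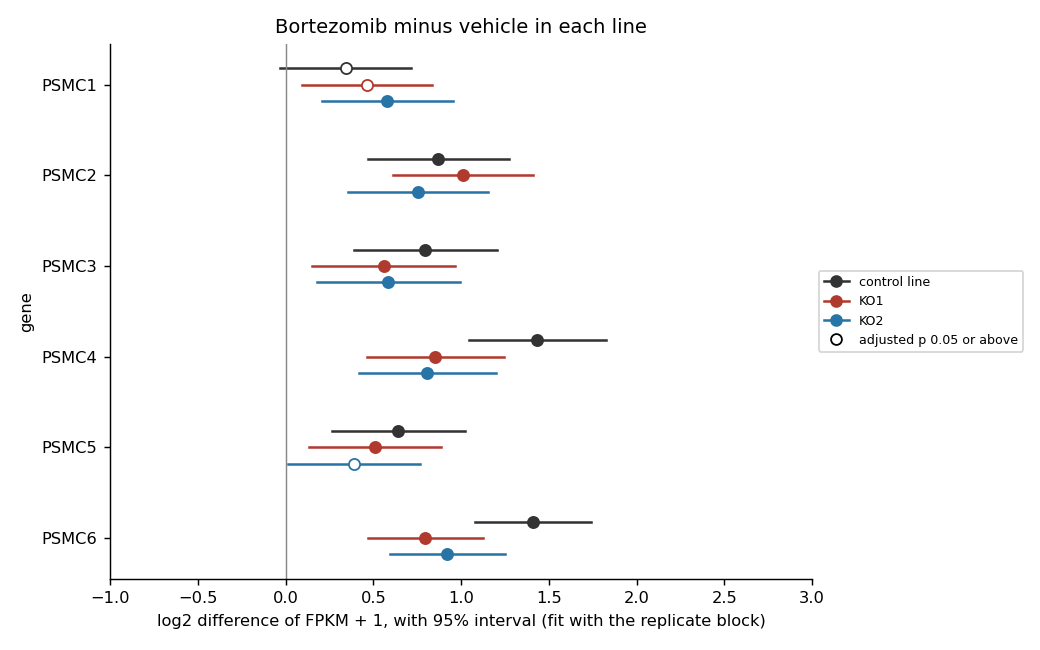
Log2 difference of FPKM + 1, bortezomib minus vehicle, for each gene in the control line, KO1 and KO2, with 95% intervals from limma with the replicate block and filled points where the adjusted p was under 0.05. All 18 points lie above 0, and PSMC4 and PSMC6 in the control line lie farthest to the right, at 1.43 and 1.41.

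Calls that depend on 1 library were found mainly among the smaller differences. With a block in which unnumbered libraries counted as R1, each of the 12 libraries was left out in turn. PSMC6 remained called in all 12 such fits in each of the 3 lines, PSMC4 in all 12 in the control line, and PSMC2 in all 12 in the control line and KO1. PSMC4 lost its call in KO1 without the partner bortezomib library of KO1 (lowest difference 0.64) and in KO2 without the partner vehicle or the R2 bortezomib library of KO2 (lowest 0.65). PSMC2 in KO2 lost its call without the same 2 libraries (lowest 0.56). In the control line PSMC3 lost its call without the R2 bortezomib library, and PSMC5 without either R2 library. The calls of PSMC3 and PSMC5 in the knockout lines were less stable: PSMC3 remained called in 5 of 12 fits in KO1 and 6 of 12 in KO2, and PSMC5 in 5 of 12 in KO1. They were lost without either bortezomib library of the control line, either vehicle library of KO2 or either bortezomib library of the line concerned, except that PSMC5 and PSMC3 in KO1 were also lost without the R2 vehicle library of KO1. Their lowest differences were 0.27 (PSMC3 in KO1), 0.46 (PSMC3 in KO2) and 0.30 (PSMC5 in KO1). PSMC1 lost its call in KO2 without either vehicle library or the R2 bortezomib library of KO2 (lowest 0.46) and gained one in KO1 in 3 of 12 fits, without either vehicle library of the control line or the R2 bortezomib library of KO1.

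The knockout lines were compared with the control line at the same treatment, with and without the inhibitor. Each contrast uses the same control line. Any effect of NFE2L1 loss is therefore mixed in them with whatever else sets a line apart. All 6 genes had lower estimates in both knockout lines at either treatment, although those of PSMC4, PSMC5 and PSMC6 in KO2 with vehicle were close to 0 and changed sign when mitochondrial genes were left out. Few differences were called, and the largest were those of PSMC4 in KO1. With vehicle, PSMC4 fell in KO1 by 0.96 ± 0.20 on the log2 scale (SE, limma adjusted p 0.0264 with the block by suffix, 1 without) and was the only one of 6 called, against 2.85% of all genes called lower with the block and 0.123% without. Its levels were 67.79 and 25.07 FPKM in KO1 and 111.7 and 53.65 in the control line, so each KO1 library was below its counterpart, although the groups overlapped. The other 5 differences in KO1 ran from -0.50 (PSMC3) to -0.22 (PSMC6). In KO2 with vehicle limma called none of the 6, with the block or without it, and none had an unadjusted p under 0.05. Of all genes, 2.25% and 0.0984% were called lower there. PSMC4 in KO2 differed from the control line by -0.08 (95% interval -0.53 to 0.38), and the lowest estimate was that of PSMC1, -0.37 (95% interval -0.80 to 0.07). In the control groups the partner library has no suffix and in the knockout groups it has R1, so with the block by suffix these contrasts are tied through the R2 libraries. Without the block the difference of PSMC4 was -0.89 in KO1 and -0.01 in KO2 with vehicle. Quantile normalization with the block ended the PSMC4 call in KO1 (-0.72, adjusted p 0.0794).

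The A549 markers also differed between the knockout lines and the control line. In limma with the block by suffix and vehicle, 1 of 8 was called higher in KO1 (KRT8, an epithelial keratin, 0.96) and 2 were called lower, AKR1C1 (-1.46) and ALDH1A1 (-0.86), which encode a reductase and a dehydrogenase. In KO2 3 of 8 were called higher, KRT8 (1.75), its partner keratin KRT18 (1.59) and the epithelial adhesion gene EPCAM (1.17), and none lower. With bortezomib 2 were called higher and 1 lower in KO1, and 3 higher and none lower in KO2. Of all genes, 2.85% and 2.25% were called lower in KO1 and KO2 with vehicle, and 3.92% and 2.3% with bortezomib. In either direction, the settings with a block called 681 to 1200 of 12194 genes in KO1 with vehicle and 529 to 1063 in KO2. With bortezomib they called 815 to 1565 in KO1 and 480 to 1108 in KO2. Genes called higher are part of these counts, and their share alone is not given here. No marker was called without the block, and the part of the marker differences in the knockout results was not tested. Contrasts that all use the same control line do not separate that part from NFE2L1 loss.

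With bortezomib, PSMC4 and PSMC6 were lower in KO1 than in the control line. PSMC4 was at 115.2 and 49.3 FPKM in KO1 against 285.2 and 156 in the control line, so that both KO1 libraries were below both control libraries. It fell by 1.54 ± 0.20 on the log2 scale (SE, 95% interval -1.998 to -1.09), to 0.344 of the control level on that scale, with a limma adjusted p of 0.00345 with the block and 0.925 without. PSMC6 was at 21.17 and 12.32 FPKM in KO1 against 31.32 and 25.34, again with no overlap, and fell by 0.84 ± 0.17 (SE, adjusted p 0.0213 with the block, 1 without). Lower groups without overlap were found for 11.9% of all genes. Without the block the differences were -1.47 for PSMC4 and -0.76 for PSMC6. These 2 of 6 were called with the block by suffix, against 3.92% of all genes called lower, and none without it, against 0.0656%. PSMC3 was not called with the block by suffix (-0.74, adjusted p 0.0665). It was called when unnumbered libraries counted as R1 (adjusted p 0.0345) and in voom with the block by suffix (adjusted p 0.0193). PSMC5, PSMC1 and PSMC2 differed by -0.49, -0.32 and -0.25 and were not called. With 1 library left out and unnumbered libraries counted as R1, PSMC4 in KO1 remained called in all 12 fits with bortezomib. With vehicle it was called in 10 of 12, lost without the R2 vehicle library of the control line or of KO1 (lowest estimate in size -0.68). PSMC6 was called in 10 of 12, lost without the R2 bortezomib library of the control line or of KO1 (lowest estimate in size -0.57). PSMC3 was called in 6 of 12, lost without any bortezomib library of these 2 lines or either vehicle library of KO2.

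In KO2 with bortezomib the same genes had the lowest estimates, and none was called in limma with either block or without one. PSMC4 was at 178.6 and 103 FPKM against 285.2 and 156, a difference of -0.70 ± 0.20 (SE, adjusted p 0.088 with the block by suffix). PSMC6 was at 24.35 and 15.99 against 31.32 and 25.34, with no overlap, which held for 10.1% of all genes in this direction. Its difference was -0.57 ± 0.17 (SE, adjusted p 0.101). With the block 3 of the 6 had an unadjusted p under 0.05, and 2.3% of all genes were called lower, against 0.0328% without it. In voom on the reads recovered from the FPKM, with the block, PSMC4 was called in KO2 (adjusted p 0.0291) and no other member was.

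**Figure D3:**
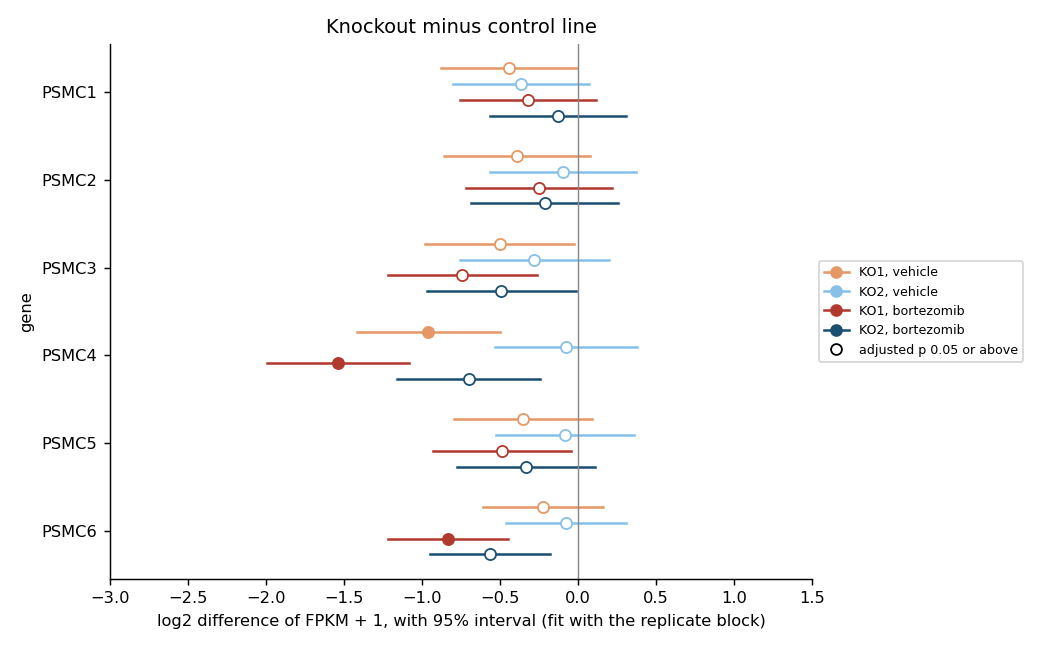
Log2 difference of FPKM + 1, knockout minus control line, for each gene in KO1 and KO2 with vehicle and with bortezomib, with 95% intervals from limma with the block by suffix and filled points where the adjusted p was under 0.05. The filled points are PSMC4 in KO1 with vehicle (-0.96), PSMC4 in KO1 with bortezomib (-1.54) and PSMC6 in KO1 with bortezomib (-0.84).

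The 2 knockout lines differed from each other in PSMC4. KO1 minus KO2 was -0.88 ± 0.17 (SE) with vehicle and -0.84 ± 0.17 with bortezomib, with limma adjusted p-values of 0.0305 and 0.0486 with the block and 1 and 1 without. Quantile normalization with the block ended both calls (adjusted p 0.0619 and 0.0626). PSMC4 was the only member called in either comparison, where 1.59% and 1.07% of all genes were called lower in KO1 with the block and 0.0492% and 0.0328% without. The levels overlapped, since the KO1 partner library with vehicle (67.79) was above the KO2 R2 library (54.48). With 1 library left out and unnumbered libraries counted as R1, the call with vehicle held in 9 of 12 fits and was lost without the R2 library of KO1 or either library of KO2. The call with bortezomib held in 4 of 12, which were those that left out a vehicle library of the control line or of KO1. NFE2L1 itself was at 8.448 and 14.82 FPKM in KO1 and 18.62 and 33.61 in KO2 with vehicle. Its part in the difference was not tested.

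The difference in bortezomib response between the knockout lines (their mean) and the control line was estimated by an interaction term, and no member was called. It was -0.60 ± 0.21 (SE, 95% interval -1.08 to -0.13) for PSMC4 and -0.55 ± 0.18 (95% interval -0.95 to -0.15) for PSMC6, with limma adjusted p-values of 0.335 and 0.302 with the block. These 2 members had an unadjusted p under 0.05 with the block and no member had one without it. For the other 4 the estimates ran from -0.23 (PSMC3) to 0.18 (PSMC1), with PSMC2 at 0.01 (95% interval -0.48 to 0.50). limma called 0% of all genes in this contrast in either fit, with unadjusted p under 0.05 for 1305 genes with the block and 115 without. voom with the block also called no member. A smaller bortezomib response of PSMC4 or PSMC6 in the knockout lines is thus an estimate that did not pass the test.

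The share of PSMC4 among the ATPase transcripts was higher with bortezomib than with vehicle in both libraries of each line. PSMC4 made up 40.3% and 41.2% of the summed FPKM of the 6 genes in the vehicle control libraries and 49.9% and 52% in the bortezomib libraries. In KO1 its share was 31.4% and 32.9% with vehicle and 35.4% and 34.4% with bortezomib, the lowest of the 3 lines. In KO2 it was 41.6% and 44.3% with vehicle and 44.8% and 46.9% with bortezomib. The PSMC1 share in the control line went from 4.95% and 6.56% with vehicle to 3.43% and 3.32% with bortezomib. The highest member stood 7.129 and 8.494 times above the lowest in the vehicle control libraries and 14.57 and 15.67 times in the bortezomib control libraries. It stood 4.566 to 6.8 times above in the 4 KO1 libraries. In KO2 the ratio was 8.268 and 10.34 with vehicle and 10.08 and 10.86 with bortezomib. These shares are a description without a test, and they compare transcripts, whereas the assembled ring holds the subunits in equal number. Shares and ratios rest on the deposited gene lengths. Those were 3.42 times the principal transcript for PSMC6, 2.84 times for PSMC5 and 1.5 times for PSMC4. A higher PSMC4 share also leaves less for the other members.

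**Figure D4:**
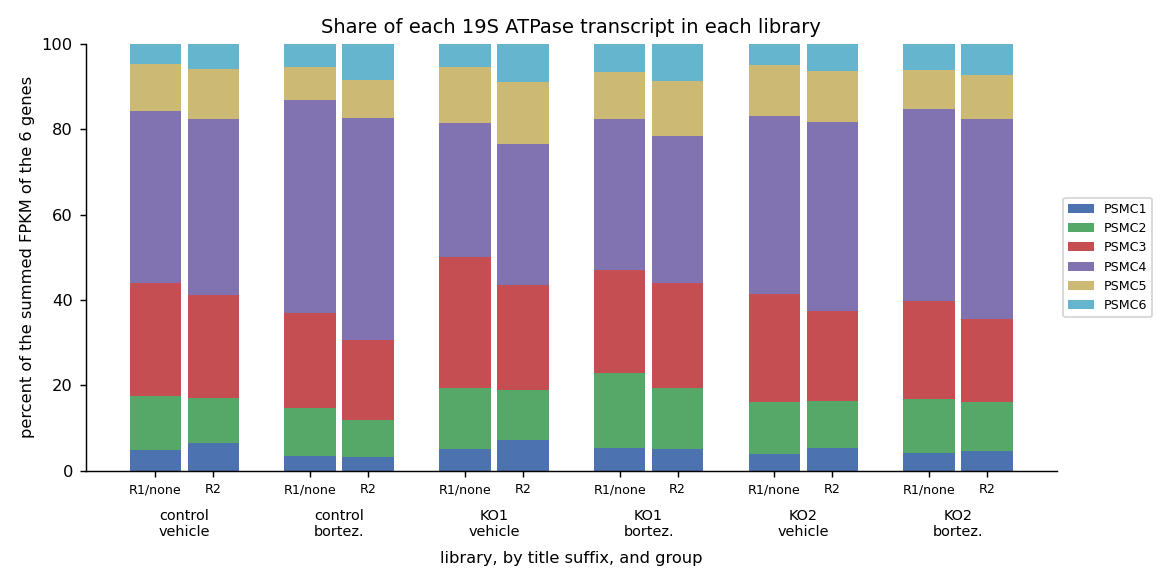
Share of each ATPase transcript in the summed FPKM of the 6 genes (percent, from 0 to 100) in each of the 12 libraries, by group and title suffix. FPKM rests on the deposited gene lengths. The PSMC4 share is 49.9% and 52% in the control line with bortezomib and 31.4% to 35.4% in the 4 KO1 libraries.

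After centring the R2 libraries and their partners separately, the 6 genes followed each other closely over the 12 libraries. Pearson's r of log2(FPKM + 1) between 2 members ran from 0.835 (PSMC1 with PSMC5) to 0.971 (PSMC3 with PSMC5), as a description, since all genes share the libraries and their treatment. The 5 genes of the table most like the mean of the 6 were PSMD6 (r = 0.993), PSMA5 (0.993), PSMD11 (0.988), KIF7 (0.987) and PSMD13 (0.986). Of these, PSMD6, PSMD11 and PSMD13 are lid subunits and PSMA5 is a subunit of the core's outer ring, while KIF7 is a kinesin of the cilium. The genes most similar to each member were found by the same measure, up to 3 for each. PSMC1 was nearest to NCK2 (0.961) and TNPO1 (0.954). For PSMC2 they were METTL16 (0.989), AFTPH (0.988) and the ubiquitin receptor PSMD4 (0.988). PSMC3 had PSMD13 (0.987), the base scaffold PSMD2 (0.985) and SLC4A1AP (0.983), and PSMC4 had the kinase gene MAP2K1 (0.973), the deacetylase gene SIRT2 (0.968) and SLC4A1AP (0.967), with no proteasome subunit among the 3. Those of PSMC5 were PSMA5 (0.983), NGLY1 (0.979) and the core subunit PSMB4 (0.977). NGLY1 removes N-glycans from proteins. PSMC6 was nearest to KIAA0368, a proteasome adaptor (0.99), DAP3, a mitochondrial ribosome subunit (0.988), and NPLOC4, a cofactor of VCP (0.988). These nearest genes were picked from all tested genes outside the 6, and a link to NFE2L1 or the proteasome was not tested.

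The other parts of the proteasome were examined for comparison, with the block by suffix in limma. With bortezomib in the control line 15 of 28 tested subunits outside the ATPase ring rose and none fell, where 16.1% of all genes were called higher. Without the block none of the 28 was called in any line, and the counts that follow are with the block. In the 19S lid, which removes ubiquitin, 7 of 9 rose, with a median difference of 0.82, the highest for PSMD12 (1.31) and the lowest for SEM1 (0.03). Of the 4 other base subunits, which bind ubiquitin and scaffold the particle, 3 rose (median 0.63), from ADRM1 at 0.29 to PSMD2 at 0.92. In the 20S core 2 of 5 tested alpha subunits rose (median 0.47, PSMA7 at 0.18 to PSMA5 at 0.78) and 3 of 7 beta subunits (median 0.52, PSMB1 at 0.28 to PSMB4 at 0.88). None of the 3 immunoproteasome subunits was called (median 0.11, PSMB9 at -0.09 to PSMB10 at 0.33). The ATPase median was 0.83, and PSMC4 and PSMC6 had the largest differences of the 34 subunits tested, on the scale of log2(FPKM + 1). The alpha subunits PSMA2 and PSMA6 were below the filter and not tested. With bortezomib their control-line means went from 0.6668 to 1.807 FPKM and from 0.3818 to 1.087 FPKM. Those of PSMC4 went from 82.66 to 220.6 FPKM and those of PSMC6 from 10.34 to 28.33 FPKM. In KO1 and KO2, 9 of 28 rose in each line with the block, against 13.9% and 12.7% of all genes. Among the deubiquitinating enzymes that bind the 19S particle, USP14 was called in all 3 lines (0.90 in the control line, 0.60 in KO1, 0.57 in KO2) and UCHL5 in none (0.05 in the control line). Without the block USP14 was called in no line (adjusted p 0.669, 0.897 and 0.923).

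None of the tested assembly chaperones of the ring was called with bortezomib in any line. PSMD5, PSMD10 (gankyrin) and PAAF1, which hold the ring's subunit pairs, differed by -0.08, -0.42 and -0.06 with bortezomib in the control line, with limma adjusted p-values of 0.717, 0.155 and 0.841 with the block. PSMD5 was at 24.28 and 10.19 FPKM with vehicle and 20.5 and 10.76 with bortezomib in the control line, and PSMD10 at 26.43 and 9.851 and at 16.88 and 8.314. PAAF1 was at 0.869 to 2.16 FPKM in vehicle control libraries. PSMD9, the other chaperone listed, was below the filter, at 0.335 to 0.95 FPKM in the control line, and was not tested. Of 6 other ATPases of the same AAA superfamily, which act outside the proteasome, VPS4B rose (0.49) and VPS4A fell (-0.43) in the control line, and the other 4 were not called. These 2 calls were made with the block (adjusted p 0.0437 and 0.0431), and neither was made without it (0.838 and 0.603). Of all genes, 16.1% were called higher there with the block. In either direction, the settings with a block called 3805 to 4584 of the 12194 genes, a share close to 2 of 6. VCP, which extracts ubiquitinated proteins for the proteasome, was not called in any line, at 0.41 in KO1 and 0.36 in KO2.

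**Figure D5:**
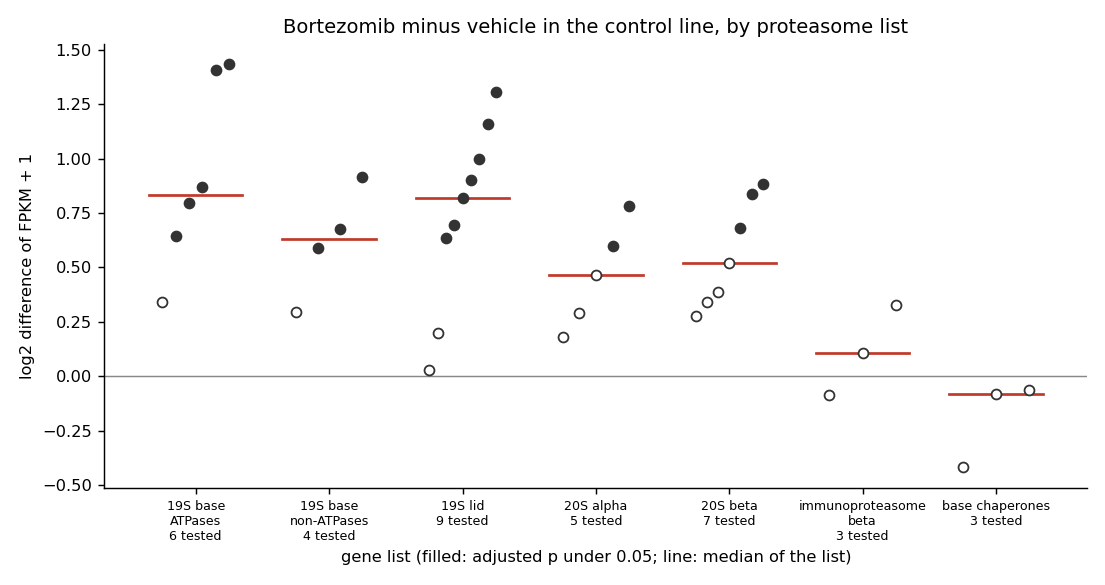
Log2 difference of FPKM + 1, bortezomib minus vehicle in the control line, for every tested gene of 7 proteasome lists, with filled points where the limma adjusted p with the block was under 0.05 and a line at each list's median. The medians are 0.83 for the ATPases, 0.63 for the other base subunits, 0.82 for the lid, 0.47 and 0.52 for the alpha and beta core subunits, 0.11 for the immunoproteasome subunits and -0.08 for the base chaperones.

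In the comparison of KO1 with the control line under bortezomib, 7 of the 28 other subunits fell and 1 rose, against 2 of 6 ATPases that fell, in limma with the block by suffix, where 3.92% of all genes were called lower. Without the block none of the 28 was called in any of the knockout comparisons. The falls were 5 of 9 in the lid, 1 of 4 among the other base subunits (PSMD1, -1.03) and 1 of 5 among the alpha subunits (PSMA4, -0.91). The rise was PSMB8, an immunoproteasome subunit (0.98). The settings with a block called 815 to 1565 of the 12194 genes in either direction in the same contrast. With a difference of -1.54, PSMC4 was the lowest of the 34 proteasome subunits tested in that comparison. In KO2 under bortezomib none of the 28 was called, and with vehicle 1 of 28 (PSMD14, -0.85) was called lower in KO1 and none in KO2.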

How the data were processed

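RNA was extracted from A549 cells with a Qiagen kit and cDNA was primed with random hexamers, per the labels' protocols. The authors deposited FPKM per gene with a gene length. CASAVA, STAR 2.5, HTSeq 0.6.1 and DESeq2 are named in the submitters' processing notes, which also list hg19, while the table's gene positions match GENCODE 29 on GRCh38 for 95.2% of the 58676 IDs and for all 6 members. FPKM times length gave whole reads (tolerance 0.02 reads) for 100% of values in every library, which gave the depth. PSMC1 to PSMC6 had 584 to 9578 reads per library.

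Groups were taken from the labels. limma 3.58.1 in R 4.3.3 (with a mean-variance trend) was fitted across all 12194 genes that averaged at least 1 FPKM, on log2(FPKM + 1), with 1 mean per group over the 12 libraries, and p-values were adjusted by Benjamini-Hochberg. The main fit had no replicate term. Libraries of the same title suffix (unnumbered control libraries counted with R1) deviated together from their group means in all 15 pairs of groups (Pearson's r across genes 0.696 to 0.89, median 0.811), so the fit with the suffix as a block (residual degrees of freedom 4, against 6) is given beside it. Pseudocount, filter, normalization, voom on recovered reads, mitochondrial genes and each library left out were varied. The model was also run on simulated data that had an additive shift between the suffixes built in, so that run does not bear on the choice of fit. All contrasts share libraries. The members and the gene lists were chosen with earlier results of these data known. By rule, all members, every base chaperone, the highest and lowest gene of each list of proteasome or AAA ATPase genes (bortezomib in the control line) and the genes most like the members in profile are named, except 1 that is not reported here. Other named genes were chosen after their values were seen. Promoter sequences are from RefSeq. Python 3.11.15 was used for tables.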

Additional observations from a re-analysis of the deposited data

Results flagged for a closer look

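PSMC4 differed between the 2 knockout lines, both labelled as knockouts of NFE2L1. In limma with the block by suffix, KO1 minus KO2 was -0.884 on the log2 scale with vehicle and -0.838 with bortezomib, with an adjusted p of 0.0305 and of 0.0486, respectively. Neither difference was called in limma when the block was left out (adjusted p of 1 in both). Quantile normalization with the block also ended both calls (adjusted p 0.0619 and 0.0626). KO1 was below KO2 within the R2 libraries and within the R1 libraries, with an FPKM ratio of 0.46 and 0.622 with vehicle and of 0.478 and 0.645 with bortezomib.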

How the results depend on the processing

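The number of members called depended on the replicate block. Without a block limma called 0 of 6 in each of the 14 contrasts under all 7 alternatives that kept every library (pseudocount 0.1, no filter, a mean FPKM of at least 5, TPM, quantile normalization, no mitochondrial genes, voom). For bortezomib in the control line, the block by suffix, the block with unnumbered libraries counted as R1, TPM with the block, quantile normalization with the block and voom with the block each called 5. In the same order they called 5, 5, 3, 5 and 6 in KO1 and 5, 5, 5, 6 and 5 in KO2. For KO1 against control they called 1, 1, 1, 0 and 1 with vehicle and 2, 3, 2, 2 and 3 with bortezomib, and the mean of the knockout lines with bortezomib gave 2, 3, 2, 2 and 3. For KO2 against control with bortezomib only voom with the block called a member (1). KO1 against KO2 gave 1, 1, 1, 0 and 1 with either treatment. The block changed no call for KO2 against control with vehicle or for the interactions. Over the same settings the number of all genes called with bortezomib in the control line ran from 14 to 142 without a block and from 3805 to 4584 with one, and for the interaction of the knockout mean from 0 to 7 and from 0 to 123. The count models planned on recovered reads were not run, because the deposited values are FPKM. Voom and the principal transcript length were chosen after seeing the data.

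With 1 library left out, with or without a block, 0 to 5 members were called for bortezomib in the control line, 0 to 6 in KO1 and 0 to 5 in KO2. For KO1 against control it was 0 to 2 with vehicle and 0 to 3 with bortezomib, for KO2 with bortezomib 0 to 1, for the knockout mean with bortezomib 0 to 3, and for KO1 against KO2 0 to 1 with either treatment.

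Signs turned only among differences that were small or, without a block, when 1 library of a group was missing, since the other was then compared across suffixes. KO2 minus control with vehicle turned to 0.064 for PSMC4 with quantile normalization (0.058 with the block), 0.007 without mitochondrial genes and 0.022 in R2 alone; to 0.012 for PSMC5 without mitochondrial genes, 0.004 with voom and 0.049 in the partners of R2 alone; and to 0.009 for PSMC6 without mitochondrial genes, 0.003 with voom and 0.041 in R2 alone. KO2 minus control with bortezomib was 0.034 for PSMC1 in R2 alone. The interaction of PSMC2 was -0.025 without mitochondrial genes, -0.002 with voom and -0.088 in the partners alone. With 1 library left out, bortezomib minus vehicle ran from -0.113 to 0.796 for PSMC1 in the control line. In KO1 it ran from -0.104 to 1.03 for PSMC1, -0.320 to 1.44 for PSMC3 and -0.131 to 1.15 for PSMC5, and in KO2 from -0.085 to 1.25 for PSMC3 and -0.136 to 0.918 for PSMC5. KO1 minus control with vehicle ran from -0.868 to 0.031 for PSMC1, -1.21 to 0.467 for PSMC2, -1.31 to 0.448 for PSMC3, -0.909 to 0.371 for PSMC5 and -0.515 to 0.215 for PSMC6. KO2 minus control with vehicle ran from -0.720 to 0.562 for PSMC2, -0.876 to 0.460 for PSMC3, -0.528 to 0.516 for PSMC4, -0.527 to 0.526 for PSMC5 and -0.368 to 0.363 for PSMC6. With bortezomib, KO1 minus control ran from -0.864 to 0.269 for PSMC1, -0.956 to 0.492 for PSMC2 and -0.867 to 0.064 for PSMC5. KO2 minus control ran from -0.557 to 0.353 for PSMC1, -0.834 to 0.443 for PSMC2, -1.01 to 0.164 for PSMC3 and -0.597 to 0.095 for PSMC5. The interaction ran from -0.275 to 0.634 for PSMC1, -0.630 to 0.653 for PSMC2, -0.821 to 0.370 for PSMC3 and -0.668 to 0.285 for PSMC5. PSMC4 and PSMC6 kept the sign of their bortezomib differences in all 3 lines in every setting run. The lowest count of a member was 584 reads, and 2 libraries per group leave few residual degrees of freedom.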
